A study of Mus musculus with 18 samples.

Results

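The 9 genes described here encode transcription factors that set the identity of myeloid cells and dendritic cells (DCs): *Spi1*, *Cebpa* and *Cebpb*, *Zbtb46*, *Id2* and *Bcl6*, *Klf2* and *Klf4*, and *Runx3*. They were taken from the expression table by gene symbol, which gave 9 of 62197 genes in the table. All 9 were among the 17875 genes tested, those with a normalized count of at least 10 in at least 3 libraries. The study sequenced poly(A)-selected, strand-specific RNA libraries from mouse DCs grown from bone marrow, to ask how confinement and the lipid-metabolizing enzyme cytosolic phospholipase A_2_ (cPLA_2_, encoded by *Pla2g4a*) shape the transcriptome of DCs. There were 18 libraries in 6 groups of 3. Nonconfined cPLA_2_ WT and cPLA_2_ KO DCs were collected at the end of culture, with no treatment by their titles and treatment labels, although the protocol text names LPS for every sample. Confined cPLA_2_ WT and cPLA_2_ KO DCs were held at a height of 3 µm and were collected 4 h after confinement. LPS-treated cells, labelled WT and KO, received 100 ng/ml of bacterial lipopolysaccharide for 30 min, were washed, and were collected the next day. All 6 groups shared 10 days of culture in medium with serum and a supernatant containing granulocyte-macrophage colony-stimulating factor (GM-CSF). The labels give neither strain nor age. Each library is a bulk culture. By the study's methods nonadherent granulocytes were lost and macrophages stayed attached while the semiadherent cells were taken, most of them positive for CD11c. How many other myeloid cells remained in each library was not measured. Fewer cells of a type and less RNA per cell cannot be told apart in these values. The study calls its replicates biological, but the labels do not say whether the 3 libraries of a group came from separate mice, so the p-values measure the spread between these samples, which may be technical in part.

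Myeloid identity is set in layers. PU.1 (*Spi1*) opens chromatin in all myeloid progenitors, C/EBPα and C/EBPβ (*Cebpa*, *Cebpb*) direct granulocytic, monocytic and emergency programs, and further factors then select the DC branch. ZBTB46 marks conventional DCs and their committed precursors, ID2 holds back the E proteins that favor plasmacytoid DCs, and BCL6, KLF4 and RUNX3 are each required for the development or function of particular conventional DC subsets.

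Library depth, as whole reads recovered from the deposited values, ranged from 33027230 to 61300021 with a median of 40950398. The lowest value of any member in any library was 207 normalized counts, for *Klf4*, so depth did not limit detection of these genes. Levels below are normalized counts, which are reads divided by a size factor for each library, and the text gives them as mean ± SD. Fold changes are on the log2 scale with their standard error (SE), and a gene was called when the p-value of limma, adjusted by the method of Benjamini and Hochberg over all 17875 genes, was under 0.05. Scaling each library to the same total, in place of size factors, moved the median log2 change of all genes to -0.23 in the confined against nonconfined cPLA_2_ WT comparison and to -0.02 in its cPLA_2_ KO counterpart. The same scaling moved that median to -0.47 and -0.44 for LPS-treated against nonconfined cells labelled WT and KO, to 0.24 for the interaction, and to 0.19 for cPLA_2_ KO against cPLA_2_ WT confined cells. For confined against LPS-treated cells it moved to 0.26 in cells labelled WT and to 0.46 in cells labelled KO. Changes smaller than these shifts depend on the scaling.

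The genotype labels were checked against *Pla2g4a* and the Y-linked genes before any comparison. In nonconfined cells *Pla2g4a* stood at 697, 686 and 770.4 normalized counts in the cPLA_2_ WT libraries and at 548, 542 and 533 in the cPLA_2_ KO libraries. In confined cells it stood at 1369, 1430.3 and 1321 in cPLA_2_ WT and at 923, 871 and 919.5 in cPLA_2_ KO libraries. It was lower in cPLA_2_ KO cells in both states, by a log2 change of -0.41 in nonconfined cells (limma adjusted p = 0.00019) and of -0.60 in confined cells (adjusted p = 3.81e-08), but transcript remained in every knockout library. By the study's methods the knockout is conditional, from mice with floxed *Pla2g4a* crossed with mice carrying Cre under the CD11c gene *Itgax*. The source of the remaining transcript was not tested. In LPS-treated cells *Pla2g4a* stood at 1005, 969 and 967 in libraries labelled WT and at 1065, 1032 and 1028 in those labelled KO, a log2 change of 0.09 (adjusted p = 1), so its transcript did not separate the 2 labels there. The Y-linked gene *Ddx3y* was between 0 and 3.05 in the 6 nonconfined and confined cPLA_2_ WT libraries and between 874 and 1036 in the 6 cPLA_2_ KO libraries. Genotype and this difference in Y-linked transcripts, and with it in the sex of the cells, therefore cannot be told apart in the nonconfined and confined groups. In LPS-treated cells *Ddx3y* was 1271, 0 and 662 in the libraries labelled WT and 2.12, 1476 and 783 in those labelled KO. *Xist*, which is transcribed from the inactive X chromosome of female cells, was at 22734 to 33681 in those cPLA_2_ WT libraries and at 12153 to 24835 in the cPLA_2_ KO libraries, and at 16450.2 to 30960.2 with LPS. The cPLA_2_ KO libraries thus held both Y-linked and *Xist* transcripts, and their source was not tested.

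By their Y-linked transcripts the LPS libraries labelled WT replicates 1 and 3 and labelled KO replicate 1 thus went against the pattern of the other groups. By *Pla2g4a* all 3 LPS libraries labelled KO went against it, since they stood above all 3 labelled WT. LPS groups are named here by their label only. Read counts were also compared between pairs of libraries with a chi-square per degree of freedom, in which a lower value is a closer pair. Nonconfined pairs gave 3.93 to 16.7 within a genotype and 17.4 to 38.5 between genotypes, and confined pairs gave 4.20 to 11.3 within and 170 to 205 between. LPS pairs within a label gave 9.71 to 44.2, whereas the closest LPS pairs carried different labels: 5.10 for labelled WT replicate 2 with labelled KO replicate 1, and 6.13 for labelled WT replicate 3 with labelled KO replicate 3. Test results on LPS-treated cells are therefore also given below without the 3 libraries set apart by Y-linked transcripts, an alternative chosen after the data were seen. Labelled KO replicates 2 and 3 are kept in it despite their *Pla2g4a*. The split is uneven, since *Ddx3y* was at a middle level in labelled WT replicate 3 (662) and labelled KO replicate 3 (783). Both were below the 874 to 1036 of the nonconfined and confined cPLA_2_ KO libraries. They formed a close pair, yet only labelled WT replicate 3 is left out. The alternative leaves 1 LPS library labelled WT and 2 labelled KO, so every such value for cells labelled WT rests on 1 library, with its spread taken from the other groups, and its calls are no independent evidence.

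Confinement changed most members in both genotypes. In cPLA_2_ WT cells 3 of 9 members were higher and 3 were lower after confinement, against 28.2% of all tested genes higher and 28.4% lower. In cPLA_2_ KO cells 3 were again higher and 3 lower, against 22.8% and 23.4%. Scaled to the same total, the counts were 3 and 6 in cPLA_2_ WT cells (3577 higher and 7375 lower of 17875 genes) and 3 and 3 in cPLA_2_ KO cells (20.8% and 25.9%), so the balance in cPLA_2_ WT cells depends on the scaling. The median log2 change of the members was -0.06 for the cPLA_2_ WT and -0.09 for the cPLA_2_ KO comparison, beside -0.01 and 0.01 over all genes. These shares were near those of all genes. *Zbtb46*, *Cebpb* and *Runx3* were called in both genotypes, *Spi1*, *Cebpa* and *Bcl6* only in cPLA_2_ WT cells, and *Id2*, *Klf2* and *Klf4* only in cPLA_2_ KO cells, but a call in 1 genotype alone is not a difference between them. The test of the interaction, which asks whether the log2 response of cPLA_2_ KO cells differed from that of cPLA_2_ WT cells, called 1 of 9 members higher (*Klf4*) and 5 lower (*Zbtb46*, *Cebpb*, *Id2*, *Klf2* and *Bcl6*), against 10.2% and 15.6% of all genes, and did not call *Spi1*, *Cebpa* or *Runx3*. It called 3 higher and 3 lower with the same total per library, against 4742 higher and 1961 lower of 17875 genes, so the lean to lower values depends on the scaling. The median of the interaction was -0.42 over the members and 0.05 over all genes. With a filter of 100 counts it called 2 members higher and 5 lower, against 16.1% and 21.8% of the genes kept. The comparisons share samples, since each nonconfined and confined group also enters the genotype comparisons.

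**Figure D1:**
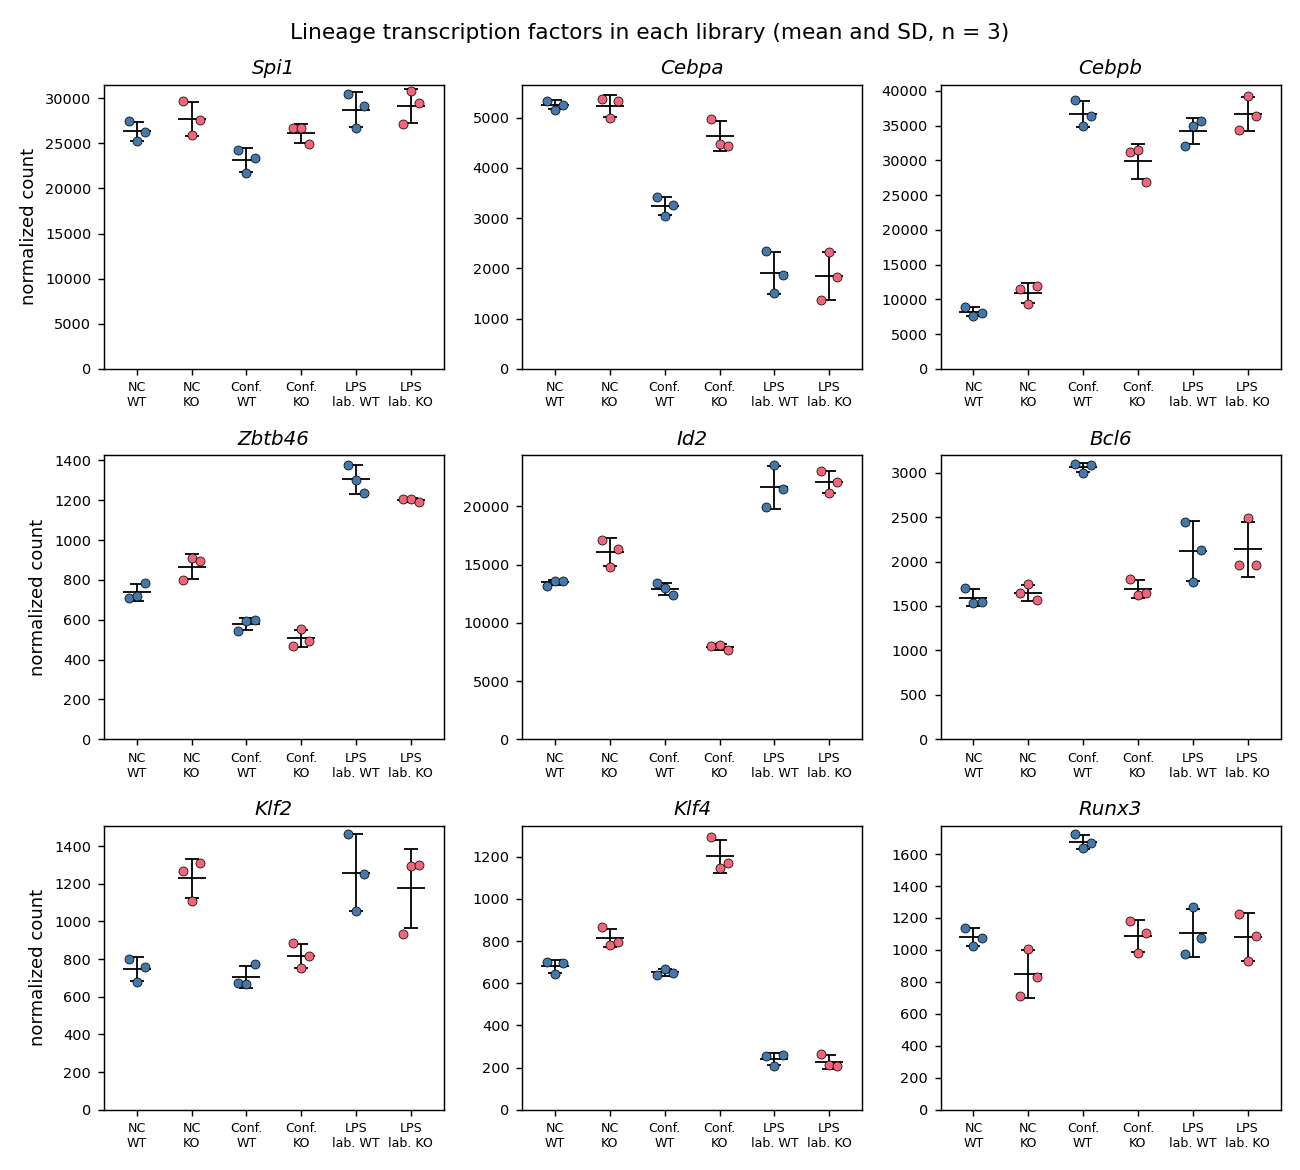
Normalized counts (y axis, from 0) of the 9 transcription factors in each library (points), with the mean and SD of each group (bars, n = 3), for nonconfined (NC), confined (Conf.) and LPS-treated cells, in blue for WT and red for KO by label. *Cebpb* lay at 7667 to 11937 in nonconfined libraries and at 26943 or above in all others, and *Bcl6* lay at 2995 to 3098 in confined cPLA_2_ WT libraries.

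*Spi1* encodes PU.1, the ETS-family factor required for all myeloid cells. It was read at 27464, 25300.1 and 26235 normalized counts in the nonconfined cPLA_2_ WT libraries and at 24280.3, 21672 and 23435 after confinement. In cPLA_2_ KO libraries it was read at 29682, 25931 and 27624 without and at 26750.2, 26659 and 24925 with confinement. All 3 confined cPLA_2_ WT libraries lay below all 3 nonconfined ones, although by a small margin, and the cPLA_2_ KO ranges overlapped. The level fell by 0.19 ± 0.06 on the log2 scale (SE; limma adjusted p = 0.0119) in cPLA_2_ WT cells and changed by -0.09 (adjusted p = 0.264) in cPLA_2_ KO cells, and the interaction of 0.10 was not called (adjusted p = 0.433) except with the same total per library (0.29, adjusted p = 0.00401). The call in cPLA_2_ WT cells was lost without nonconfined replicate 1 (-0.16, adjusted p = 0.0616) or without confined replicate 2 (-0.14, adjusted p = 0.0806). LPS-treated libraries held 30500.2, 26683 and 29096 (labelled WT) and 27169, 30860.2 and 29443 (labelled KO). *Spi1* was the steadiest member, with only 1.26-fold between the highest and the lowest group mean, and each group overlapped the next in the order of levels except confined cPLA_2_ KO (26112 ± 1029; SD, n = 3) over confined cPLA_2_ WT (23129 ± 1331; SD, n = 3).

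*Cebpa* encodes C/EBPα, which drives the step from common to granulocyte–monocyte progenitors. In nonconfined cells it was read at 5340.0, 5161 and 5255 in cPLA_2_ WT and at 5377, 4989.6 and 5337 in cPLA_2_ KO libraries. After confinement it was read at 3423, 3050.1 and 3255 in cPLA_2_ WT and at 4971, 4483 and 4431 in cPLA_2_ KO libraries. The 2 nonconfined groups overlapped, whereas all confined cPLA_2_ WT libraries lay below all confined cPLA_2_ KO libraries. *Cebpa* fell by 0.70 ± 0.14 on the log2 scale (SE; limma adjusted p = 0.000173) with confinement in cPLA_2_ WT cells. In cPLA_2_ KO cells the change of -0.18 was not called (adjusted p = 0.306), although the ranges did not overlap, and with only these 2 groups in the model it was (adjusted p = 0.0287). The interaction of 0.52 ± 0.19 (SE) missed the threshold (limma adjusted p = 0.0546) and passed it with a filter of 100 counts (adjusted p = 0.046), with the same total per library (0.71, adjusted p = 0.00474) or with only these 4 groups in the model (adjusted p = 2.33e-05). LPS libraries were lowest, at 2344, 1502 and 1877 (labelled WT) and 1374, 2322 and 1836 (labelled KO). These values paired across the labels, with 1 high, 1 middle and 1 low library under each label. The low and the middle pair were the 2 closest pairs of whole libraries. The high pair was not, since labelled KO replicate 2 was closer to labelled KO replicate 3 (chi-square per degree of freedom 9.71) than to labelled WT replicate 1 (12.2). From nonconfined cPLA_2_ WT (5252 ± 89.3; SD, n = 3) to LPS-treated cells labelled KO (1844 ± 474; SD, n = 3) the means spanned 2.85-fold.

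*Cebpb* encodes C/EBPβ, the factor of emergency granulopoiesis and of inflammatory gene induction in macrophages and DCs. It showed the largest response to confinement among the members in both genotypes. The nonconfined libraries held 8901, 7667 and 8085 in cPLA_2_ WT and 11534, 9277 and 11937 in cPLA_2_ KO cells, and the confined libraries held 38717, 34988 and 36399.7 and 31211, 31478 and 26943. No confined library came near a nonconfined one, and the genotypes changed places: cPLA_2_ KO libraries were the higher ones before confinement and the lower ones after it, with no overlap in either state. The difference after confinement was not called with the same total per library (-0.14, limma adjusted p = 0.144). Nor was it called without confined cPLA_2_ KO replicate 3 (-0.23, adjusted p = 0.0514). *Cebpb* rose 4.47-fold in cPLA_2_ WT cells (log2 2.16 ± 0.08, SE; limma adjusted p = 2.32e-15) and 2.75-fold in cPLA_2_ KO cells (log2 1.46; adjusted p = 5.71e-12), and the interaction of -0.70 ± 0.12 (SE) was called (adjusted p = 8.09e-05). LPS-treated libraries held 32115, 34912 and 35602 (labelled WT) and 34352, 39276 and 36362 (labelled KO), overlapping those of confined cPLA_2_ WT cells. In the order of group means, confined cPLA_2_ WT (36701 ± 1883; SD, n = 3) and both LPS groups overlapped, followed by confined cPLA_2_ KO (29877 ± 2545; SD, n = 3), nonconfined cPLA_2_ KO (10916 ± 1433; SD, n = 3) and nonconfined cPLA_2_ WT (8218 ± 628; SD, n = 3), each apart from the next. The exon of *Cebpb* shares 312 bases with exons of the protein-coding gene *Peds1* on the opposite strand, and how far reads of *Peds1* enter the count cannot be told apart.

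*Zbtb46* encodes a zinc finger repressor restricted within the immune system largely to conventional DCs and their precursors. Nonconfined libraries held 709, 719 and 786 normalized counts in cPLA_2_ WT and 798, 909 and 895 in cPLA_2_ KO cells. Confined libraries held 542, 592 and 597 and 468, 554 and 495, and LPS-treated libraries held 1379, 1299 and 1234 (labelled WT) and 1207, 1208 and 1192 (labelled KO). Confined libraries were the lowest in either genotype and LPS libraries the highest, and only the 2 confined groups overlapped each other. Confinement lowered *Zbtb46* 1.28-fold in cPLA_2_ WT cells (log2 -0.35 ± 0.07, SE; limma adjusted p = 0.000353) and 1.71-fold in cPLA_2_ KO cells (log2 -0.78; adjusted p = 2.56e-08). The interaction of -0.42 ± 0.11 (SE) was called (limma adjusted p = 0.00471), but not with the same total per library (-0.23, adjusted p = 0.111). LPS-treated cells labelled WT (1304 ± 72.4; SD, n = 3) stood 2.58-fold above confined cPLA_2_ KO cells (506 ± 44.1; SD, n = 3), the widest pair for this gene.

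*Id2* encodes an inhibitor of E proteins, which pairs with them and keeps them from DNA, and is needed for the CD8α+ lineage of conventional DCs. Nonconfined libraries held 13178.5, 13595 and 13614 in cPLA_2_ WT and 17144, 14792 and 16306 in cPLA_2_ KO cells, and confined libraries held 13376, 13008 and 12348 and 8027, 8055 and 7626. Confined and nonconfined cPLA_2_ WT libraries overlapped, whereas every confined cPLA_2_ KO library was below all others of the 18. In cPLA_2_ KO cells *Id2* fell 2.03-fold (log2 -1.02 ± 0.06, SE; limma adjusted p = 6.49e-12), against -0.06 in cPLA_2_ WT cells (adjusted p = 0.392), and the interaction of -0.96 ± 0.08 (SE) was the most negative among the members (adjusted p = 6.79e-09). With the same total per library the change in cPLA_2_ WT cells was -0.29 (adjusted p = 0.000398). LPS libraries held 19905, 23569 and 21456 (labelled WT) and 22997, 21133 and 22052 (labelled KO), above all others. The LPS group labelled KO (22061 ± 932; SD, n = 3) thus stood 2.79-fold above confined cPLA_2_ KO cells (7903 ± 240.1; SD, n = 3).

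*Bcl6* encodes a transcriptional repressor required for conventional DC1 development and known from germinal center B cells. Nonconfined libraries held 1702, 1535 and 1543 in cPLA_2_ WT and 1643, 1742 and 1562 in cPLA_2_ KO cells. Confined libraries held 3098, 2995 and 3081 in cPLA_2_ WT and 1806, 1623 and 1644 in cPLA_2_ KO cells. The 3 confined cPLA_2_ WT libraries stood above all others, and the confined cPLA_2_ KO libraries overlapped both nonconfined groups. *Bcl6* rose 1.92-fold with confinement in cPLA_2_ WT cells (log2 0.94 ± 0.10, SE; limma adjusted p = 2.7e-08), with a log2 change of 0.04 in cPLA_2_ KO cells (adjusted p = 0.785), and the interaction of -0.91 ± 0.13 (SE) was called (adjusted p = 2.32e-05). In LPS-treated cells it was read at 2441, 1771 and 2135 (labelled WT) and 1963, 2487 and 1957 (labelled KO), with wide overlap between the labels. Confined cPLA_2_ WT cells (3058 ± 55.0; SD, n = 3) therefore led the order, and all other neighbouring groups overlapped.

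*Klf2* encodes a Krüppel-like factor linked to quiescence and trafficking of lymphocytes and to restraint of myeloid activation. Nonconfined libraries held 802, 678 and 759.6 in cPLA_2_ WT and 1266, 1109.6 and 1308 in cPLA_2_ KO cells, and confined libraries held 673, 668 and 773 and 884, 755 and 816. Nonconfined cPLA_2_ KO libraries stood above all nonconfined and confined libraries of the other groups. *Klf2* fell by 0.58 ± 0.12 on the log2 scale (SE; limma adjusted p = 0.000451) with confinement in cPLA_2_ KO cells and changed by -0.08 in cPLA_2_ WT cells (adjusted p = 0.59). With the same total per library the change in cPLA_2_ WT cells was -0.31 (adjusted p = 0.0248). The interaction of -0.50 ± 0.17 (SE) was called at a limma adjusted p of 0.035. That call was lost without a filter (adjusted p = 0.0616), with the same total per library (-0.31, adjusted p = 0.137) and without any of 7 single libraries: nonconfined cPLA_2_ WT replicate 2 (-0.43) or 3 (-0.52), nonconfined cPLA_2_ KO replicate 1 (-0.48) or 3 (-0.45), confined cPLA_2_ WT replicate 3 (-0.43), and confined cPLA_2_ KO replicate 2 (-0.45) or 3 (-0.50). LPS libraries held 1466, 1057 and 1253 (labelled WT) and 936, 1292 and 1299 (labelled KO), and these overlapped nonconfined cPLA_2_ KO cells (1228 ± 105; SD, n = 3).

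*Klf4* encodes a Krüppel-like factor of monocyte differentiation that is also needed by a subset of type 2 conventional DCs. Nonconfined libraries held 702, 644 and 695 in cPLA_2_ WT and 865, 784 and 797 in cPLA_2_ KO cells, and confined libraries held 639.7, 668 and 647 and 1292, 1145 and 1171. LPS libraries held 257, 208 and 260.2 (labelled WT) and 264, 211 and 207 (labelled KO). The confined cPLA_2_ KO libraries were the highest and all 6 LPS libraries the lowest, whereas nonconfined and confined cPLA_2_ WT libraries overlapped. *Klf4* rose 1.47-fold with confinement in cPLA_2_ KO cells (log2 0.56 ± 0.10, SE; limma adjusted p = 7.55e-05), against -0.06 in cPLA_2_ WT cells (adjusted p = 0.624), and the interaction of 0.62 ± 0.14 (SE) was the only one called in the positive direction (adjusted p = 0.0018). With the same total per library the change in cPLA_2_ WT cells was -0.29 (adjusted p = 0.0153). *Klf4* had the widest span among the members, 5.29-fold from confined cPLA_2_ KO cells (1203 ± 78.1; SD, n = 3) to LPS-treated cells labelled KO (227 ± 31.9; SD, n = 3).

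*Runx3* encodes a RUNT-domain factor that acts downstream of TGF-β signaling and controls integrin genes in DCs and T cells. Nonconfined libraries held 1138, 1024 and 1074 in cPLA_2_ WT and 712, 1009 and 829.8 in cPLA_2_ KO cells, and confined libraries held 1725, 1638 and 1667 and 1180.5, 982 and 1107. The confined cPLA_2_ WT libraries stood above all others, and the confined cPLA_2_ KO range reached into that of nonconfined cPLA_2_ KO cells. *Runx3* rose 1.55-fold in cPLA_2_ WT cells (log2 0.64 ± 0.11, SE; limma adjusted p = 6.23e-05) and 1.29-fold in cPLA_2_ KO cells (log2 0.37; adjusted p = 0.0117), and the interaction of -0.27 was not called (adjusted p = 0.248). The call in cPLA_2_ KO cells was lost without nonconfined replicate 1 (0.25, adjusted p = 0.0957) or without confined replicate 1 (0.31, adjusted p = 0.0584). LPS libraries held 974.8, 1268 and 1075 (labelled WT) and 1225, 928 and 1086 (labelled KO). These overlapped the nonconfined cPLA_2_ WT and confined cPLA_2_ KO libraries but spread wider, and the 4 groups overlapped in turn between confined cPLA_2_ WT (1676 ± 44.3; SD, n = 3) and nonconfined cPLA_2_ KO cells (850.4 ± 149.5; SD, n = 3).

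**Figure D2:**
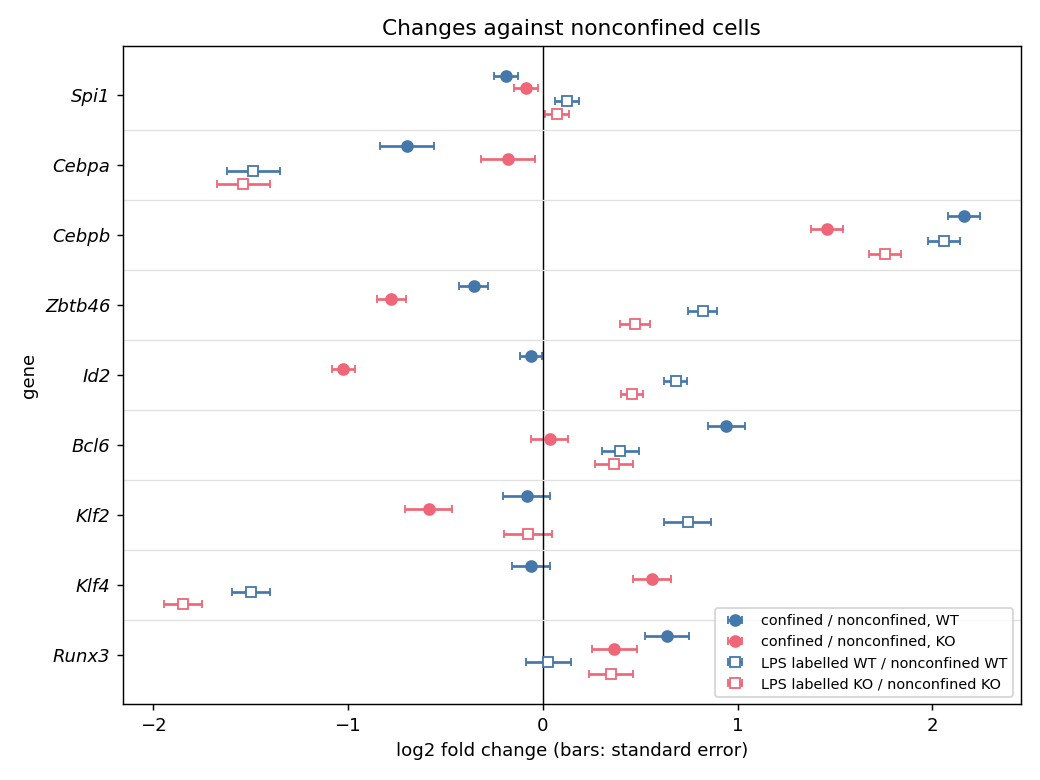
Log2 fold change (x axis, bars for the SE of limma) of each gene (y axis) in confined cells (filled circles) and LPS-treated cells (open squares) against nonconfined cells of the same label, in blue for WT and red for KO. *Cebpb* was higher in all 4 comparisons (1.46 to 2.16) and *Klf4* was lower with LPS (-1.496 and -1.85) but not with confinement.

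Levels of the members were compared with each other after division by the summed length of their annotated exons, as normalized counts per kilobase. In nonconfined cPLA_2_ WT cells *Spi1* was the most abundant at 8717 ± 359 (SD, n = 3), followed by *Cebpb* (5464), *Id2* (3863) and *Cebpa* (1993). *Klf2* (349), *Bcl6* (238), *Klf4* (216) and *Runx3* (215) formed a lower tier and *Zbtb46* was the least abundant at 45.2. In confined cPLA_2_ WT cells *Cebpb* took the first place at 24403 ± 1252 per kilobase (SD, n = 3), ahead of *Spi1* (7656). It led *Spi1* in both LPS groups (22746 and 24377) and in confined cPLA_2_ KO cells (19865) as well. *Zbtb46* has an exon length of 16348 bases over 17 annotated transcripts, which lowers its value per kilobase, and *Cebpb* has 1504 bases.

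Fewer members differed between cPLA_2_ KO and cPLA_2_ WT cells, a comparison that includes the difference in Y-linked transcripts, before confinement than after it. *Klf2*, however, differed more before it, and *Cebpb* and *Id2* were called in opposite directions before and after it. In nonconfined cells 3 of 9 members were higher in cPLA_2_ KO and 0 lower, against 4.78% of all genes higher and 4.11% lower in limma (3 and 1, against 4.25% and 5.85%, with the same total per library), and the median log2 difference was 0.23 over the members and 0.00 over all genes. *Klf2* was 1.64-fold higher (log2 0.72, limma adjusted p = 0.000745), *Cebpb* 1.32-fold (0.40, adjusted p = 0.00363) and *Id2* 1.19-fold (0.25, adjusted p = 0.00889), each with all 3 cPLA_2_ KO libraries above all 3 cPLA_2_ WT libraries. The call of *Id2* was lost without nonconfined cPLA_2_ KO replicate 1 (0.21, adjusted p = 0.0661). *Zbtb46* (0.23, adjusted p = 0.0593), *Runx3* (-0.36, adjusted p = 0.0568) and *Klf4* (0.26, adjusted p = 0.109) also had ranges that did not overlap but missed the threshold in limma. DESeq2 on the recovered reads called all 3 of them (adjusted p = 0.0294, 0.0312 and 0.0309). *Zbtb46* was called by edgeR (adjusted p = 0.0471) and without nonconfined cPLA_2_ KO replicate 1 (0.29, adjusted p = 0.0432), and *Runx3* without nonconfined cPLA_2_ KO replicate 2 (-0.49, adjusted p = 0.00752), but over all single left-out libraries *Zbtb46* ranged from 0.20 to 0.29 (adjusted p up to 0.189) and *Runx3* from -0.49 to -0.24 (adjusted p up to 0.307). With a filter of 100 counts *Zbtb46* (adjusted p = 0.0432) and *Runx3* (adjusted p = 0.0466) passed as well, and *Runx3* also passed with the same total per library (-0.39, adjusted p = 0.045).

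After confinement 3 members were higher and 5 lower in cPLA_2_ KO than in cPLA_2_ WT cells, against 18.8% and 20.6% of all genes (4 and 3, against 33.6% and 14.6%, with the same total per library), with a median of -0.19 over the members and 0.04 over all genes. *Klf4* was 1.84-fold higher (log2 0.88, limma adjusted p = 2.24e-07), *Cebpa* 1.43-fold (0.51, adjusted p = 0.00495) and *Spi1* 1.13-fold (0.18, adjusted p = 0.0259). *Bcl6* was 1.81-fold lower (log2 -0.86, limma adjusted p = 2.4e-07), *Id2* 1.63-fold (-0.71, adjusted p = 2.02e-09), *Runx3* 1.54-fold (-0.62, adjusted p = 0.000152) and *Cebpb* 1.23-fold (-0.30, adjusted p = 0.006). The ranges of these 7 genes did not overlap between genotypes. *Zbtb46* was called lower (-0.19, adjusted p = 0.0475) with ranges that did overlap. That call was lost without a filter (adjusted p = 0.0699), with only these 2 groups in the model (adjusted p = 0.0893), with the same total per library (-0.04, adjusted p = 0.737), and without confined cPLA_2_ WT replicate 2 (-0.17) or 3 (also -0.17) or confined cPLA_2_ KO replicate 1 (-0.14) or 3 (-0.18). *Klf2* was not called (0.22, adjusted p = 0.174), except with the same total per library (0.37, adjusted p = 0.011). The call of *Spi1* was lost with TMM scaling (0.15, adjusted p = 0.062), with edgeR (adjusted p = 0.0622), without a filter (adjusted p = 0.0501), and without confined cPLA_2_ WT replicate 2 (0.13) or confined cPLA_2_ KO replicate 1 or 2 (0.16 each). That of *Cebpb* was lost with the same total per library (-0.14, adjusted p = 0.144) and without confined cPLA_2_ KO replicate 3 (-0.23, adjusted p = 0.0514).

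Treatment with LPS, which activates DCs through Toll-like receptor 4, gave changes that overlapped in part with those of confinement. In cells labelled WT, *Cebpb* was higher and *Cebpa* lower with both, whereas *Zbtb46* was lower with confinement only. LPS-treated cells were collected the day after treatment, so LPS and the time of collection cannot be told apart in these comparisons. In libraries labelled WT 5 of 9 members were higher than in nonconfined cPLA_2_ WT cells and 2 lower, against 33.4% and 29.4% of all genes, with a median of 0.40 over the members and 0.03 over all genes. In libraries labelled KO 5 were higher and 2 lower than in nonconfined cPLA_2_ KO cells, against 33.4% and 30.1%, with a median of 0.35 over the members and 0.02 over all genes. The balance turned with the same total per library, to 3 higher and 4 lower in libraries labelled WT (17.8% and 52.0% of all genes) and to 1 higher and 4 lower in those labelled KO (18.3% and 51.4%). Leaving out the 3 LPS libraries gave 4 and 2 (28.6% and 25.0%) and 5 and 2 (32.4% and 29.4%). *Cebpb* rose 4.17-fold in libraries labelled WT and 3.37-fold in those labelled KO (limma adjusted p = 2.68e-15 and 4.32e-14). *Cebpa* (log2 -1.48 and -1.54) and *Klf4* (log2 -1.496 and -1.85) fell in both labels (adjusted p = 4.05e-09, 2.35e-09, 1.37e-11 and 3.82e-13). Without the 3 libraries these changes were 2.09 and 1.80 for *Cebpb*, -1.81 and -1.34 for *Cebpa*, and -1.70 and -1.96 for *Klf4*, all called.

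*Zbtb46* rose by 0.82 and 0.47 (limma adjusted p = 3.28e-09 and 1.01e-05) and *Id2* by 0.68 and 0.46 (adjusted p = 1.1e-09 and 5.12e-07) in libraries labelled WT and KO. Both changes in libraries labelled KO turned to -0.01 for *Zbtb46* and -0.02 for *Id2* with the same total per library. Without the 3 LPS libraries they were 0.82 and 0.47 for *Zbtb46* and 0.81 and 0.43 for *Id2*, all called. *Bcl6* rose by 0.40 and 0.37 (adjusted p = 0.00101 and 0.00214), but with the same total per library both values were -0.11, and without the 3 LPS libraries the change in those labelled WT was 0.15 and no longer called (adjusted p = 0.22), beside 0.42 in those labelled KO. *Klf2* rose by 0.74 in libraries labelled WT (adjusted p = 1.53e-05), or by 0.51, still called, without the 3 libraries, and the call was lost with the same total per library (0.23, adjusted p = 0.079). In those labelled KO the value of *Klf2* was -0.08 (adjusted p = 0.607). It was 0.08 without the 3 libraries, of which only replicate 1 is labelled KO, and -0.56 (adjusted p = 0.000211) with the same total.

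*Runx3* was called in libraries labelled KO (0.35, limma adjusted p = 0.0111), with ranges that overlapped, and not in those labelled WT (0.03, adjusted p = 0.845). The value in those labelled WT was -0.48 (adjusted p = 0.0013) with the same total, -0.02 with TMM scaling and -0.01 with edgeR. The call in those labelled KO was lost without nonconfined cPLA_2_ KO replicate 1 (0.23, adjusted p = 0.0956) or LPS replicate 1 labelled KO (0.25, adjusted p = 0.0719), and the value turned to -0.13 with the same total per library. Without the 3 libraries the changes of *Runx3* were 0.23 (labelled WT, not called) and 0.25 (labelled KO, called). In libraries labelled WT the value turned to -0.01 without nonconfined cPLA_2_ WT replicate 2 and to -0.07 without LPS replicate 2. *Spi1* was not called in either label (0.13 and 0.07; adjusted p = 0.0786 and 0.316; 0.02 and 0.12 without the 3 libraries), was called without LPS replicate 2 labelled WT (0.18, adjusted p = 0.0187), and with the same total per library was lower in both (-0.39 and -0.41; adjusted p = 1.18e-06 and 5.89e-07).

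Between the LPS labels 0 of 9 members were called by limma, against 0% of all genes higher and 0% lower. At an unadjusted p under 0.05 limma counted 890.0 of 17875 genes (4.98%), edgeR 812 (4.54%) and DESeq2 831 (4.65%), each with 0 members among them, and edgeR and DESeq2 also called 0 genes. The log2 differences of the members lay between -0.12 and 0.10, with a median of -0.04 over the members and 0.00 over all genes. Without the 3 libraries, *Cebpa* was higher in libraries labelled KO (0.46, adjusted p = 0.016) and the other 8 members were not called, with values from -0.34 for *Runx3* to 0.32 for *Bcl6*.

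Confinement and LPS were also set side by side. Confined cells were collected 4 h after confinement and LPS-treated cells the next day. The stimulus and the time of collection therefore cannot be told apart in this comparison. In cells labelled WT 4 members were higher in confined than in LPS-treated cells and 4 lower, against 21.6% and 27.2% of all genes, with a median of 0.10 over the members and -0.02 over all genes. In cells labelled KO 2 were higher and 6 lower, against 28.1% and 30.6%, with medians of -0.30 and 0.02. Under the same total per library the counts were 5 and 3 in cells labelled WT (41.1% and 13.7% of all genes) and 4 and 2 in those labelled KO (53.7% and 15.8%), so the balance in the latter turned. Leaving out the 3 LPS libraries gave 4 and 4 (16.6% and 21.2%) and 2 and 6 (27.5% and 29.8%). *Klf4* was 2.703-fold higher in confined than in LPS-treated cells labelled WT and 5.30-fold higher in those labelled KO (limma adjusted p = 8.24e-11 and 4.57e-15), and *Cebpa* 1.73-fold and 2.56-fold higher (adjusted p = 6.01e-05 and 2.22e-08). *Zbtb46* was 2.26-fold and 2.38-fold lower (adjusted p = 2.68e-11 and 3.91e-12), and *Id2* 1.67-fold and 2.79-fold lower (adjusted p = 7.43e-10 and 2.4e-15). The log2 values of these 4 genes without the 3 LPS libraries were 1.64 and 2.52 for *Klf4*, 1.11 and 1.16 for *Cebpa*, -1.17 and -1.25 for *Zbtb46*, and -0.87 and -1.45 for *Id2*, all called.

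*Klf2* was lower in confined cells in both labels (-0.83 and -0.51; limma adjusted p = 7.36e-06 and 0.0011; -0.59 and -0.67 without the 3 libraries), but the value in cells labelled KO was -0.07 (adjusted p = 0.618) with the same total per library. *Bcl6* was higher in confined cells labelled WT (0.54, adjusted p = 6.61e-05; 0.79 without the 3 libraries) and lower in those labelled KO (-0.33, adjusted p = 0.00549; -0.39 without the 3 libraries), where the same total per library gave 0.11 and leaving out LPS replicate 2 labelled KO gave -0.21 (adjusted p = 0.0523). *Runx3* was higher in confined cells labelled WT (0.61, adjusted p = 0.000141; 0.40 and called without the 3 libraries), with 0.02 in those labelled KO (adjusted p = 0.899; 0.11 without the 3 libraries). That last value was 0.46 (adjusted p = 0.00204) with the same total per library, and it was -0.04 without confined cPLA_2_ KO replicate 1 and -0.09 without LPS replicate 2 labelled KO.

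*Cebpb* did not pass the threshold between confined and LPS-treated cells labelled WT (0.10, limma adjusted p = 0.328; 0.07 without the 3 libraries), but with the same total per library it was higher in confined cells (0.39, adjusted p = 0.000292). It was lower in confined cells labelled KO (-0.30, adjusted p = 0.00386; -0.34 without the 3 libraries; 0.15 with the same total per library). *Spi1* was lower in confined cells in both labels (-0.31 and -0.16; adjusted p = 0.000198 and 0.031; -0.21 in each without the 3 libraries). The 2 values were, with the same total per library, -0.03 (adjusted p = 0.707) and 0.29 (adjusted p = 6.11e-05). In cells labelled KO the call of *Spi1* was also lost without a filter (adjusted p = 0.0572), with TMM scaling (-0.12, adjusted p = 0.104), with edgeR (adjusted p = 0.101), with DESeq2 (adjusted p = 0.0597), and without confined cPLA_2_ KO replicate 3 or LPS replicate 2 (-0.12 each) or 3 (-0.15) labelled KO.

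A list of 40 other lineage factors, among them *Irf4*, *Irf8* and *Batf3*, was examined beside the members, and all 40 were tested. In this and the other lists the most abundant gene is the one with the highest normalized count, not divided by length. With confinement 19 were higher and 17 lower in cPLA_2_ WT cells (median 0.18), and 12 higher and 18 lower in cPLA_2_ KO cells (median -0.02). The interaction called 6 higher and 15 lower (median -0.06), where the same total per library gave 12 and 13 (median 0.12). In cPLA_2_ WT cells that scaling gave 16 higher and 20 lower with a median of -0.05, so the direction of the median depends on the scaling. Between genotypes 5 were higher and 5 lower in nonconfined cPLA_2_ KO cells (median 0.01), and 12 higher and 18 lower in confined cPLA_2_ KO cells (median -0.18), or 16 and 16 with the same total per library. With LPS 23 were higher and 12 lower (labelled WT, median 0.34) and 20 higher and 13 lower (labelled KO, median 0.22), where the same total per library turned the medians to -0.17 and -0.26 and reversed 6 called factors in WT (*Irf4*, *Gata2*, *Cebpd*, *Cebpg*, *Maf* and *Ahr*) and 2 in KO (*Batf3* and *Runx2*). Against LPS-treated cells, confined cells had 9 higher and 20 lower (labelled WT, median -0.22) and 10 higher and 23 lower (labelled KO, median -0.50), and between the LPS labels limma called 0 of 40. The same total per library gave 15 and 16 (median 0.07) and 14 and 15 (median -0.06), and it reversed *Etv6* in WT and *Nfil3*, *Ikzf1* and *Cebpd* in KO. Without the 3 LPS libraries the counts were 23 and 12 and 21 and 13 for LPS, 9 and 20 and 10 and 23 for confined against LPS-treated cells, and 1 and 2 between the LPS labels.

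Among the factors of this list with large changes in cPLA_2_ WT cells, *Spic*, *Nfil3* and *Batf* rose and *Mef2c* and *Myb* fell. *Spic*, the PU.1 relative of red pulp macrophages, rose from 29.4 ± 2.65 to 434 ± 15.1 (SD, n = 3) and reached 487 ± 28.0 (SD, n = 3) in confined cPLA_2_ KO cells (log2 3.84 and 3.30; limma adjusted p = 7.71e-13 and 2.77e-11). *Nfil3*, which acts upstream in conventional DC1 specification, rose from 1791 ± 70.8 to 8319.6 ± 344 (SD, n = 3) in cPLA_2_ WT cells, and confined cPLA_2_ KO cells held 3308 ± 102 (SD, n = 3), with an interaction of -1.61 (adjusted p = 2.7e-07). *Batf*, an AP-1 factor of activated lymphocytes and DCs, stood at 462 ± 18.7 in cPLA_2_ WT cells after confinement but at 149 ± 10.1 in their cPLA_2_ KO counterparts (SD, n = 3), with an interaction of -1.67 (adjusted p = 7.72e-08).

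The progenitor factor *Myb* fell in both genotypes as well (log2 -1.94 and -1.23; limma adjusted p = 2.53e-12 and 9.41e-09), with an interaction of 0.71 (adjusted p = 0.00173). *Mef2c*, known from lymphoid and DC progenitors, fell by 1.97 in cPLA_2_ WT and by 0.92 in cPLA_2_ KO cells (adjusted p = 5.96e-08 and 0.0011), with an interaction of 1.05 (adjusted p = 0.012). *Batf3*, the factor that maintains conventional DC1s, fell by 0.41 in cPLA_2_ WT cells (adjusted p = 0.0022) and by 1.63 in cPLA_2_ KO cells (adjusted p = 4.18e-11), there from 681 ± 51.2 to 219 ± 9.41 (SD, n = 3), with an interaction of -1.22 (adjusted p = 1.3e-06). *Zeb2*, a repressor active in monocytes and plasmacytoid DCs, rose by 1.75 in cPLA_2_ WT and by 1.06 in cPLA_2_ KO cells (adjusted p = 2.84e-14 and 3.65e-10), with an interaction of -0.70 (adjusted p = 4.25e-05). *Runx2* rose alike in both, by 0.96 and 0.94 (adjusted p = 1.71e-07 and 4.66e-07), and its interaction of -0.02 was not called (adjusted p = 0.942). The interaction of *Pparg*, the lipid-sensing receptor of alveolar macrophages, was 0.77 (adjusted p = 0.00342), and confined cPLA_2_ KO cells held the most of it at 658 ± 26.7 (SD, n = 3).

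A second list held 19 known targets and partners of the members, from colony-stimulating factor receptors for PU.1 to corepressors for BCL6, and all 19 were tested. With confinement 7 were higher and 8 lower in cPLA_2_ WT cells (median -0.02) and 5 higher and 9 lower in cPLA_2_ KO cells (median -0.14), and the interaction called 4 higher and 5 lower (median 0.08). These were, with the same total per library, 6 and 10 in cPLA_2_ WT cells, where *Csf2ra* reversed, 5 and 9 in cPLA_2_ KO cells, and 10 and 5 for the interaction. In confined cells 8 were higher and 4 lower in cPLA_2_ KO (median 0.12; 12 and 4 with the same total), and in nonconfined cells 5 were higher and 3 lower (median 0.02). With LPS 8 were higher and 9 lower (labelled WT, median -0.10) and 8 higher and 10 lower (labelled KO, median -0.22). Confined against LPS-treated cells had 4 higher and 9 lower (labelled WT, median -0.40) and 8 higher and 7 lower (labelled KO, median 0.12), and limma called 0 of 19 between the LPS labels. The same total per library reversed *Csf2ra* and *Csf3r* with LPS labelled KO, and *Csf2ra* in confined against LPS-treated cells labelled KO. Without the 3 LPS libraries the counts were 8 and 7 and 8 and 10 for LPS, 3 and 9 and 9 and 7 for confined against LPS-treated cells, and 1 and 0 between the LPS labels. The most abundant gene of the list was *Itgam*, the integrin CD11b, at 66181 ± 704 in nonconfined cPLA_2_ WT cells (SD, n = 3). A pair of genes was chosen after their values were seen. *Il6*, a cytokine gene bound by C/EBPβ, stood at 83.5 ± 7.98 in nonconfined and 12859 ± 475 in confined cPLA_2_ WT cells, and at 119 ± 14.5 and 289.9 ± 20.7 in cPLA_2_ KO cells (SD, n = 3), with an interaction of -5.97 (limma adjusted p = 1.52e-19). *Prdm1*, a gene repressed by BCL6 in B cells, rose by 1.57 in cPLA_2_ WT and by 0.73 in cPLA_2_ KO cells (adjusted p = 7.96e-12 and 2.35e-06).

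The relatives of each member were counted by family, with confinement in cPLA_2_ WT and then in cPLA_2_ KO cells. Of 5 C/EBP genes, with *Cebpb* the most abundant, 2 were higher and 3 lower in cPLA_2_ WT cells and 2 were higher and 2 lower in cPLA_2_ KO cells. Of 17 KLF genes 13 were tested, since *Klf12*, *Klf14*, *Klf15* and *Klf17* did not pass the filter and *Klf17* was at 0 in every library. The most abundant was *Klf6*, and 6 were higher and 2 lower in cPLA_2_ WT cells (4 and 6 with the same total per library) and 7 higher and 1 lower in cPLA_2_ KO cells. Of 4 ID genes 3 were tested, without *Id4*, with *Id2* the most abundant, and 0 were higher and 2 lower in each genotype by limma (0 and 3 in cPLA_2_ WT cells with the same total, 0 and 1 with TMM scaling). All 3 RUNX genes were tested, with *Runx3* the most abundant, and 2 were higher and 1 lower in each genotype. In the PU.1 group of 3, led by *Spi1*, 1 was higher and 2 lower in cPLA_2_ WT cells, and 1 was higher and 1 lower in cPLA_2_ KO cells.

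Markers of the cell types that such cultures can hold were summed in each library, and their part in the changes of the members was not tested. The DC list (9 of 9 genes tested, *Cd74* most abundant) summed to between 360688.5 and 387251 normalized counts in nonconfined cPLA_2_ WT libraries and between 420794 and 446043 in cPLA_2_ KO libraries. Confined libraries held 319423 to 342174 and 283727 to 298591, and LPS libraries 542917 to 611042 (labelled WT) and 549460.4 to 600524 (labelled KO). By limma 8 of 9 DC markers were lower with confinement and 1 higher in cPLA_2_ WT cells (median log2 -0.95), and 9 were lower in cPLA_2_ KO cells (median -1.01), a larger change than that of the sum, which *Cd74* leads. The order of the group medians of the sum (436103 and 366694 nonconfined, 329877 and 297032 confined) was also the order of *Zbtb46* and *Id2* by group mean. With LPS the median of the sum was higher in libraries labelled KO (583760) than in those labelled WT (569095). There *Id2* had the same order by group mean (22061 and 21643), whereas *Zbtb46* had the opposite one (1202 and 1304).

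The macrophage list (8 of 8 tested, *Cd14* most abundant) held 27169 to 28507 in nonconfined and 154522 to 162930.5 in confined cPLA_2_ WT libraries, whereas cPLA_2_ KO libraries held 31517 to 32351 and 42989 to 46393. LPS libraries held 115683 to 124048 (labelled WT) and 113418 to 119763 (labelled KO). *Cd14*, itself a gene induced in activated DCs, made up most of this sum in confined cPLA_2_ WT libraries (131510.4 ± 3988; SD, n = 3). By limma only 2 of 8 macrophage markers were higher with confinement and 4 were lower in cPLA_2_ WT cells (median log2 -0.35), or 1 and 5 with the same total per library, and 2 were higher and 5 lower in cPLA_2_ KO cells (median -0.61). The neutrophil list (10 of 10 tested, *S100a9* most abundant) held 240277 to 245294 in nonconfined and 144958 to 154432 in confined cPLA_2_ WT libraries, against 333356 to 370846 and 330924 to 346911 in cPLA_2_ KO libraries. LPS libraries held 291395 to 309473 (labelled WT) and 277933 to 313086 (labelled KO). Confined cPLA_2_ WT cells were thus the lowest in the neutrophil sum, with no overlap. With confinement 10 of 10 neutrophil markers were lower in cPLA_2_ WT cells (median log2 -1.14), and 4 were lower and 0 higher in cPLA_2_ KO cells by limma (median -0.44).

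The eosinophil list (6 of 6 tested, *Prg2* most abundant) held 30837 to 31137 in nonconfined and 8121 to 8757 in confined cPLA_2_ WT libraries, and 70575 to 75776 and 21251 to 22053 in cPLA_2_ KO libraries. In LPS libraries it ranged from 25598 to 44003 (labelled WT) and from 25529 to 44015 (labelled KO). Within each label the libraries stood in the same order as for *Cebpa*. The mast cell and basophil list (7 of 7 tested, *Cpa3* most abundant) held 9105 to 9304 and 3707 to 3866 in nonconfined and confined cPLA_2_ WT libraries, 13324 to 13975 and 6846 to 7099 in cPLA_2_ KO libraries, and 8258 to 9075 (labelled WT) and 8389 to 9625 (labelled KO) with LPS. The sums of both lists, and that of the neutrophil list, were higher in cPLA_2_ KO than in cPLA_2_ WT libraries in either state, with no overlap. Not every marker followed, since 1 of 6 eosinophil markers was called lower in cPLA_2_ KO cells in each state. The cell division list (5 of 5 tested, *Top2a* most abundant) was highest in nonconfined cPLA_2_ WT libraries at 31602 to 32917, followed by nonconfined cPLA_2_ KO at 24051 to 25532. The sum stood at 19475 to 20632 and 17912 to 18983 in confined libraries and at 12880.3 to 17203 over the 6 LPS libraries.

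The T and NK cell list, with 4 of 7 genes tested (*Trac*, *Ncr1* and *Klrb1c* not) and *Cd3g* the most abundant, summed to 2536 to 3289 in nonconfined, 740.3 to 1281 in confined and 451 to 571 in LPS libraries. The erythroid list, with 1 of 5 tested (*Hbb-bt*) and *Alas2* at 0 in every library, had group medians from 78.0 to 151. In the test of the interaction 9 of 10 neutrophil markers were higher and 0 lower (median log2 0.69), and 4 of 7 mast cell and basophil, 1 of 6 eosinophil and 1 of 5 cell division markers were higher and 0 lower. Of the DC markers 0 were higher and 4 of 9 lower (median -0.26), and of the macrophage markers 0 were higher and 2 of 8 lower, which became 1 and 2 and 2 and 2 with the same total per library.

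**Figure D3:**
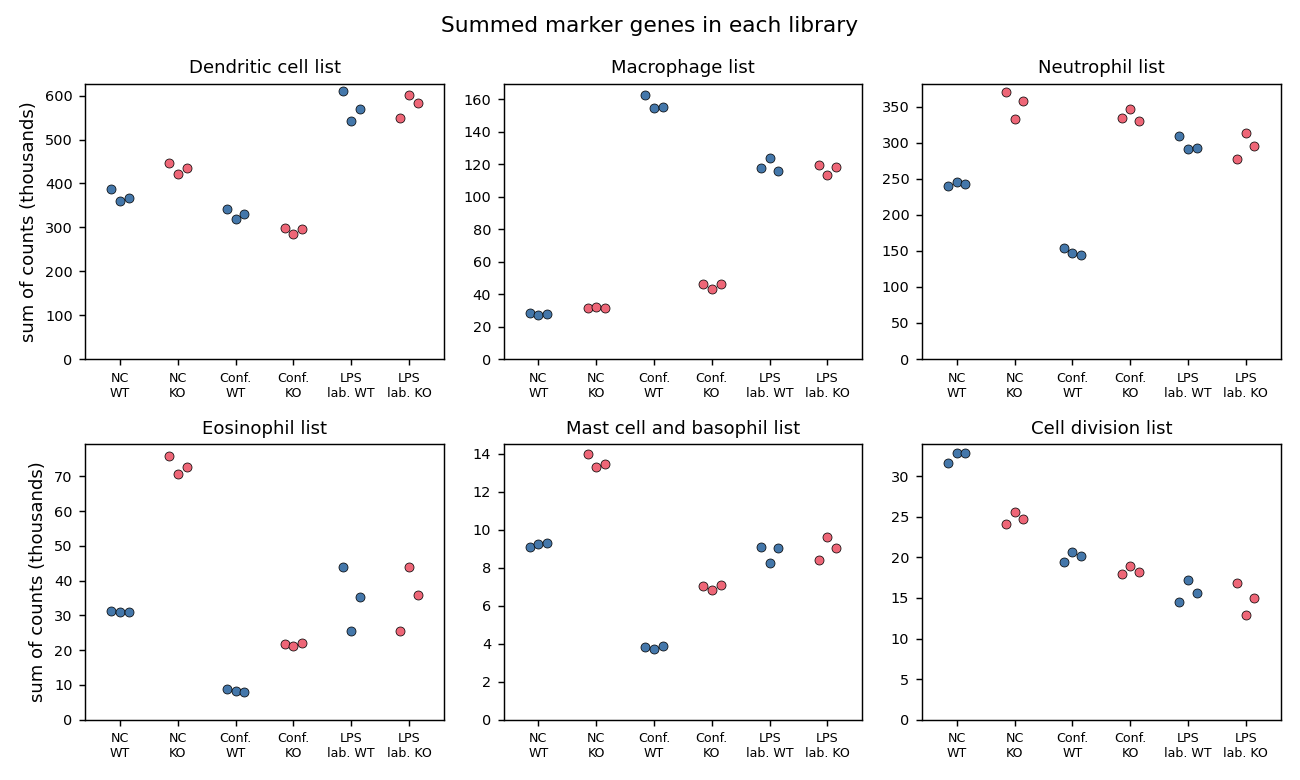
Summed normalized counts (y axis in kilocounts, from 0) of 6 marker lists in each library (points, 3 per group) of nonconfined (NC), confined (Conf.) and LPS-treated cells, in blue for WT and red for KO by label. The macrophage sum was 154522 to 162930.5 in the confined cPLA_2_ WT libraries, and the eosinophil sum was 70575 to 75776 in the nonconfined cPLA_2_ KO libraries. *Cd14* made up most of that macrophage sum. By limma 2 of 8 macrophage markers were higher with confinement in cPLA_2_ WT cells and 4 were lower.

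For each member whose group means spanned over 1 on the log2 scale, the genes with the most similar pattern were ranked by Pearson's r over the 18 libraries among 10545 genes with a mean of at least 100 counts. The libraries form 6 groups, so r mainly reflects the order of the group means and is given as a description. *Zbtb46* was closest to *St3gal5* (r = 0.984), *H2-T24* (0.977) and *Cacnb3* (0.976). *Cebpa* was closest to *Ank* (0.989), *Hr* (0.985) and *Tex261* (0.985), and *Cebpb* to the ferritin gene *Fth1* (0.991), the urokinase receptor gene *Plaur* (0.990) and *Grina* (0.989). *Id2* was closest to the amino acid transporter gene *Slc7a7* (0.991), *Glipr2* (0.985) and the immunoproteasome gene *Psmb9* (0.985), and *Klf4* to *Bsn* (0.987), the entry *Tnfsf12* // *Tnfsf13* // *Tnfsfm13* (0.984) and *Snx24* (0.982). *Plaur*, as an example, had group means of 11563 and 12648 in nonconfined, 25998 and 22803 in confined and 26667 and 27084 in LPS-treated cells, the same split as *Cebpb*.

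The members were placed on the mouse genome (build GRCm39) by the coordinates of the table, and gene structures are those of the GENCODE annotation. *Spi1* (GSMG0029710) lies at chr2:90912750-90946103 on the plus strand, *Cebpa* (GSMG0048160) at chr7:34818718-34821353 on the plus strand and *Cebpb* (GSMG0031281) at chr2:167530835-167532352 on the plus strand. *Zbtb46* (GSMG0033591) lies at chr2:181029559-181101221, *Id2* (GSMG0011858) at chr12:25143800-25146094 and *Bcl6* (GSMG0021538) at chr16:23783800-23807602, all on the minus strand. *Klf2* (GSMG0053535) lies at chr8:73072877-73075498 on the plus strand, *Klf4* (GSMG0038119) at chr4:55527139-55532477 on the minus strand and *Runx3* (GSMG0037379) at chr4:134847956-134905301 on the plus strand. *Cebpa* and *Cebpb* have 1 exon, and the canonical transcripts of the others have 3 (*Id2*, *Klf2*), 5 (*Spi1*, *Zbtb46*, *Klf4*, *Runx3*) or 10 exons (*Bcl6*). Besides *Peds1*, exons of noncoding genes on the opposite strand overlap those of *Bcl6* (*Gm60914*, 232 bases; *Gm60916*, 472), *Cebpa* (*Gm45091*, 51), *Id2* (*Gm36287*, 466; *Gm59395*, 796) and *Zbtb46* (*Gm74777*, 619). Whether reads were counted by strand is not stated in the sources used.

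Promoter sequences were matched for 8 of 9 members, all but *Spi1*, in 10 windows of 300 bases that reach from 250 bases before to 50 bases after a RefSeq start (table of build GRCm38.p6, placed on GRCm39 by exact match). Each window was searched on both strands for 6 motifs bound by the members' families or partners, and a match is a description, not a site. AGGAAGT of PU.1 and TTGCNNAA of C/EBP were in 0 of the 10 windows, against 9.35% and 10.8% of 32851 windows of the genome. CCNCNCCC of KLF factors was in 7 (49.5% of all windows), CAGNTG of E proteins in 5 (51.4%), TTCNNNGAA of BCL6 and STAT factors in 2 (8.3%) and TGTGGT of RUNX factors in 1 (16.8%). The 2 windows with TTCNNNGAA were both of *Bcl6*, and the window with TGTGGT was of *Runx3*.

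The sequences that follow are shown because *Bcl6*, *Runx3* and *Klf4* held the motif of their own family and differed between confined cPLA_2_ WT and cPLA_2_ KO cells. They are on the strand of the gene, 5′ to 3′, without exonic bases, and capitals mark the matches of that motif. *Bcl6* window 1 (chr16:23800034-23800283, minus strand) is intronic, lies just before a RefSeq start 7569 bases inside the gene, and has 3 matches of TTCNNNGAA. *Bcl6* window 2 (chr16:23807603-23807852, minus strand) lies just before the annotated gene start and has 1 match. The *Runx3* window (chr4:134847706-134847951, plus strand) has ACCACA, the reverse complement of TGTGGT, at 2 places, and the *Klf4* window (chr4:55532529-55532725, minus strand) has 9 matches of CCNCNCCC or its reverse complement, some of which overlap.
Bcl6 window 1: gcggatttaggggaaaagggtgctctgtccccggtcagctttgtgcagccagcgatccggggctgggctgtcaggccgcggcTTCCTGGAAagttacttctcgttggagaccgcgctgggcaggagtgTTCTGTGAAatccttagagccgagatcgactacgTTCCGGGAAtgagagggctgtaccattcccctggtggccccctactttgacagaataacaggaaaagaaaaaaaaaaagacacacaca
Bcl6 window 2: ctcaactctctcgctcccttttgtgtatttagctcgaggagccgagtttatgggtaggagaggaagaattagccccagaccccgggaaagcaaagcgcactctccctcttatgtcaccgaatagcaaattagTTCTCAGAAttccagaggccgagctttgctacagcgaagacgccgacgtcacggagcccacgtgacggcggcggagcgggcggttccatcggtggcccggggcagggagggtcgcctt
Runx3: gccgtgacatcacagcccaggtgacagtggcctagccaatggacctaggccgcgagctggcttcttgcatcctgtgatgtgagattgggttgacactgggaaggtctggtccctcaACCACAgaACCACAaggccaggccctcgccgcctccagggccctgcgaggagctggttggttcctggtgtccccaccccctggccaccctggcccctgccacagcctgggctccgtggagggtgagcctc
Klf4: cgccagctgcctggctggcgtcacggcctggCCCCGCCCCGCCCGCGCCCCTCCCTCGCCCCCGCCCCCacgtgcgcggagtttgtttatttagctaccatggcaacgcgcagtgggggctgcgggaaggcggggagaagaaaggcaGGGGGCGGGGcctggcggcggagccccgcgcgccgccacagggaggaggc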

How the data were processed

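Poly(A) RNA of 18 libraries was analysed from 1 table of normalized counts. Per the submitters' processing notes, the authors mapped reads with STAR 2.7.5a, counted them with featureCounts 1.5.0 and scaled them with DESeq2 in R 3.5.3, and the deposited signal of each gene is its reads divided by a size factor per library. The intergenic filter of the authors was not repeated. Per the labels, 2 library kits were used. Whole reads were recovered from the step of each column, and 100% of values were whole within 0.01. Depth is given in the report. Values were taken as log2(normalized count + 1), which understates changes of low genes. Genes with at least 10 in at least 3 libraries were kept. R 4.3.3 and limma 3.58.1 (trend, 6 condition means) tested 17875 genes, with p-values adjusted over all of them and a threshold of 0.05. On recovered reads, edgeR 4.0.16 called 5283 genes higher and 4819 lower and DESeq2 1.42.0 called 5219 and 5048 for confinement in cPLA_2_ WT cells. Figures were drawn with matplotlib 3.10.9. Only the limma step was tested on simulated data, for confinement in cPLA_2_ WT cells. It recovered 100 of 100 genes changed by 1 on the log2 scale and 99 of 100 changed by 0.5, with 15 false calls. The interaction, the scalings, edgeR and DESeq2 were not tested in this way.

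The members and lists were chosen with earlier results of these data known. Named were all members and, among the other lineage factors with a mean of at least 100, the 3 largest called changes in each direction for confinement in each genotype and for the interaction, of which 1 is not reported here. Genes alike to a member were ranked over genes with a mean of at least 100. Alternatives were pseudocounts of 0.5 and 5, no filter or a filter of 100, the same total per library or TMM scaling, edgeR, DESeq2, only the compared conditions, a replicate block, an absolute log2 fold change above 1, an unadjusted p of at most 0.05 with a fold change of 1.5, each library left out in turn, and the LPS groups without 3 libraries.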

Additional observations from a re-analysis of the deposited data

Results flagged for a closer look

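The test of the interaction found that 6 of 9 members responded differently to confinement in cPLA_2_ KO than in cPLA_2_ WT cells, 1 higher and 5 lower, where 10.2% of all genes were higher and 15.6% lower. With a filter of 100 counts 2 members were higher and 5 lower, against 16.1% and 21.8% of the genes kept. Scaling to the same total gave 3 members higher and 3 lower, and 4742 genes higher and 1961 lower of 17875. The difference between the log2 responses was -0.42 for *Zbtb46*, -0.70 for *Cebpb*, -0.96 for *Id2*, -0.50 for *Klf2* and -0.91 for *Bcl6*, and it was 0.62 for *Klf4*. *Spi1* (0.29, limma adjusted p = 0.00401) and *Cebpa* (0.71, adjusted p = 0.00474) were also called with that scaling. The call of *Zbtb46* was lost with that scaling (-0.23, limma adjusted p = 0.111), and that of *Klf2* was lost with the same total, without a filter and without any of 7 single libraries. Marker lists moved in the same test, with 9 of 10 neutrophil markers higher and 4 of 9 DC markers lower, and whether they account for the members was not tested.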

How the results depend on the processing

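Of the members' log2 values under other pseudocounts, filters, scalings, tools, samples in the fit and the block, 849 kept direction and side of the threshold, 19 passed the threshold or moved further, 17 moved the other way and 15 reversed. Without the 3 LPS libraries 39 kept both, 1 moved the other way and 5 reversed, and the cause was not tested. With an absolute log2 fold change above 1, fewer members were called, and the share of all genes called fell as well. The members were 1 in place of 6 for confinement in cPLA_2_ WT cells (19.0% of all genes in place of 56.6%), 2 in place of 6 in cPLA_2_ KO cells (12.0% in place of 46.3%) and 0 in place of 6 for the interaction (7.67% in place of 25.8%). Between genotypes they were 0 in place of 3 in nonconfined cells (1.15% in place of 8.88%) and 0 in place of 8 in confined cells (10.1% in place of 39.4%). They were 3 in place of 7 for LPS in either label (27.4% in place of 62.8% for WT, 27.9% in place of 63.5% for KO), and 2 and 4 in place of 8 for confined against LPS-treated cells labelled WT and KO (13.8% in place of 48.9%, and 23.0% in place of 58.7%). With an unadjusted p and a fold change of 1.5 the counts were 4 and 3 for confinement in cPLA_2_ WT and cPLA_2_ KO cells (34.5% and 23.6% of all genes), 4 for the interaction (16.5%), 1 and 4 between genotypes in nonconfined and confined cells (5.59% and 19.4%), 6 and 3 for LPS labelled WT and KO (43.1% and 43.9%), 6 and 4 for confined against LPS-treated cells labelled WT and KO (26.2% and 37.7%), and 0 between the LPS labels (1.77%). Between nonconfined genotypes a filter of 100 called 5 (13.9%) and DESeq2 6 (11.3%) in place of 3. Without the 3 LPS libraries, chosen after seeing the data, 1 was called between LPS labels in place of 0 (2.99% of all genes in place of 0%). Reversed values with the same total per library were, for LPS labelled WT, *Spi1* -0.39, *Runx3* -0.48 and *Bcl6* -0.11. For LPS labelled KO they were *Zbtb46* -0.00572, *Spi1* -0.41, *Id2* -0.0219, *Runx3* -0.13 and *Bcl6* -0.11, and for confined against LPS-treated cells labelled KO *Spi1* 0.29, *Cebpb* 0.15 and *Bcl6* 0.11. *Cebpa* between nonconfined genotypes was 0.0016 with TMM scaling and 0.0024 with edgeR, and *Runx3* with LPS labelled WT was -0.0165 and -0.0106. Without the 3 LPS libraries *Klf2* with LPS labelled KO was 0.0807, and between LPS labels *Cebpa* was 0.46, *Id2* -0.13, *Klf2* 0.29 and *Klf4* 0.00771.

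With single libraries left out, ranges that crossed 0 were -0.0120 to 0.0766 for *Bcl6* with confinement in cPLA_2_ KO cells, -0.0254 to 0.0285 for *Cebpa* between nonconfined genotypes, -0.0743 to 0.115 for *Runx3* with LPS labelled WT, -0.156 to 0.0807 for *Klf2* with LPS labelled KO and -0.0856 to 0.115 for *Runx3* in confined against LPS-treated cells labelled KO. Between LPS labels they were -0.0329 to 0.0700 for *Spi1*, -0.24 to 0.14 for *Cebpa*, -0.0285 to 0.0934 for *Id2*, -0.221 to 0.0544 for *Klf2*, -0.131 to 0.0694 for *Runx3* and -0.11 to 0.13 for *Bcl6*. The replicate block changed no call, with 6 members called for confinement in either genotype, and in no comparison did all 3 same-numbered pairs of libraries correlate above 0.1. Depth limited no member.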
